A study of Mus musculus with 27 samples.

Results

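Acute phase proteins are plasma proteins whose output by the liver is altered in the hours and days after injury, infection or inflammation. Interleukin-6 and related cytokines act on hepatocytes through STAT3, and interleukin-1 and tumour necrosis factor through NF-kB and C/EBP factors. Serum amyloid A, haptoglobin and the orosomucoids are used as blood readouts of this response in mice. The 10 genes described here were taken by symbol from tables that hold 17655 genes in all, and each of the 10 was present in every table. They were the 4 serum amyloid A genes Saa1, Saa2, Saa3 and Saa4, the orosomucoids Orm1 and Orm2, haptoglobin (Hp), hemopexin (Hpx), lipocalin 2 (Lcn2) and serum amyloid P (Apcs).

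All 27 mice carried floxed Kdm5b (Kdm5b fl/fl), the gene of an H3K4 demethylase, and whole liver RNA was sequenced. There were 9 groups of 3 mice. On WDA, 8 weeks of a western diet given together with alcoholic drinking water, females and males had received AAV8-control (WT) or AAV8-CMV-Cre (KO), and a further female group had received AAV8-TBG-Cre (HepKO). The resolution (Res) groups had 16 weeks of WDA, then AAV-control (WT) or AAV-CMV-Cre (KO), then 4 weeks without WDA, in both sexes. The CMV promoter is active in many cell types and the TBG promoter in hepatocytes, and AAV8 reaches mainly hepatocytes. By the study's methods, resolution mice returned to chow and plain water, and a surgical liver biopsy preceded resolution in its design. The labels do not say which of these mice had the biopsy. Res and WDA mice came from separate experiments, each deposited as a table per sex, so stage, experiment, diet, length of WDA and time since the vector cannot be told apart. Ages are not in the labels, and with a like starting age the Res mice would also be older. The separate mice of a group are its replicates.

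Total estimated counts per library ran from 14634602 to 19388251. Kdm5b, the targeted gene, had a mean of 26.0 ± 4.94 CPM (counts scaled to library size, SD, n = 3) in WT and 18.1 ± 5.20 in KO females on WDA, and KO mouse 1, at 24.1 CPM, lay within the WT range. HepKO females had 13.3 ± 4.63 CPM. The KO means were 21.5, 12.0 and 12.6 CPM in WDA males, Res females and Res males, against 24.3, 17.1 and 19.2 in their WT groups. The Y-linked Ddx3y was at 37.8 CPM or more in every male and at 0.513 or less in every female. The hepatocyte markers Alb, Apoa2, Cps1, Ttr, Cyp2e1 and Ass1 summed to between 72179 and 173033 CPM. In 5 libraries the cholangiocyte markers Krt19, Krt7, Epcam, Sox9 and Spp1 summed to between 154 and 527 CPM, against 16.3 to 105 in the other 22. These were WT female WDA mouse 7, KO male WDA mouse 17, WT female Res mouse 13, WT male Res mouse 9 and KO male Res mouse 5. In Res mouse 13 pancreas transcripts also summed to 62.7 CPM, against at most 5.51 elsewhere. In whole liver, a change in the number of cells of a type and a change in RNA per cell cannot be told apart.

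The genes lie in 2 clusters and 4 separate loci. In GRCm38 with GENCODE vM21, Saa3 (chr7:46711998-46715700), Saa4 (chr7:46727998-46732603), Saa1 (chr7:46740497-46742980) and Saa2 (chr7:46751790-46754313) form a cluster in which only Saa2 is on the plus strand. Orm1 (chr4:63344560-63348163), Orm3 (chr4:63356162-63359511) and Orm2 (chr4:63362449-63365878) lie side by side on the plus strand. Hp is at chr8:109575128-109579172, Hpx at chr7:105591613-105600137, Lcn2 at chr2:32384633-32388252 and Apcs at chr1:172893961-172895041, each on the minus strand. All are protein-coding and have between 2 and 10 exons. The Saa1 and Saa2 transcripts share 94.4% of aligned bases, and 9.11% of the 50-base windows of Saa1 occur in Saa2. Orm1 and Orm2 share 91.0% of bases and 20.4% of such windows. How reads that match 2 copies were assigned is not given in the sources used here, so the split between these copies is uncertain.

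Promoter sequences are shown for the members that rose in WT males and that RefSeq (GRCm38.p6) lists. Each run is the 250 bases before the start site in the RefSeq promoter table, 5′ to 3′ on the gene's own strand. That site is not always the gene boundary given above: the Lcn2 run lies inside the GENCODE gene, and the Saa2 and Saa3 runs reach into theirs. RefSeq's own Saa1 and Saa3 gene records also extend further upstream than the site used. Capitals mark matches to the searched motifs on either strand. Saa1 is chr7:46742981-46743230 (minus), Saa2 chr7:46751583-46751832 (plus), Saa3 chr7:46715677-46715926 (minus), Orm2 chr4:63362199-63362448 (plus) and Lcn2 chr2:32387740-32387989 (minus).
Saa1: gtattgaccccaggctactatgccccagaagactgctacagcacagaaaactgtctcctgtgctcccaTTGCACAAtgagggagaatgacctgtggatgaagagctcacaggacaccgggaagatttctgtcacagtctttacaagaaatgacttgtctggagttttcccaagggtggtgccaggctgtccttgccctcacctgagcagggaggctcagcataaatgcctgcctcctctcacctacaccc
Saa2: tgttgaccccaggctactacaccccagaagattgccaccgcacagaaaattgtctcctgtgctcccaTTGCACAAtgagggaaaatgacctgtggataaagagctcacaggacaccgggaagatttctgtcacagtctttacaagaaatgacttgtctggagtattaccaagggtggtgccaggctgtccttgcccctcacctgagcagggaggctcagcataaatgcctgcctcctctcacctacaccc
Saa3: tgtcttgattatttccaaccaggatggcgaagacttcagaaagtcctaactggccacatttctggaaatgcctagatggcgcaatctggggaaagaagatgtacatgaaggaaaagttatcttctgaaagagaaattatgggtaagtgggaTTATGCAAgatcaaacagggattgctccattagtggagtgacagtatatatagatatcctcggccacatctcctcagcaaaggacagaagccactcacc
Orm2: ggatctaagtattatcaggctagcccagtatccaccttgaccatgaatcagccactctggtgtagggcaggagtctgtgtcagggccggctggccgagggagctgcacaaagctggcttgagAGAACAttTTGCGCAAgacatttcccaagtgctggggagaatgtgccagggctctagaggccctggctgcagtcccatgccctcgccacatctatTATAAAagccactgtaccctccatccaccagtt
Lcn2: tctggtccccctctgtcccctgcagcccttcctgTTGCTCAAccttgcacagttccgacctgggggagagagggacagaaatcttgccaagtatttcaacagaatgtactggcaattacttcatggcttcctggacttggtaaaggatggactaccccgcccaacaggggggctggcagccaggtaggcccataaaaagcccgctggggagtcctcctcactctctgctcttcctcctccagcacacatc
The capitals are C/EBP matches (TTGCNNAA), except that Orm2 also holds AGAACA, the reverse complement of the TGTTCT searched for the glucocorticoid receptor, and a TATA box (TATAAA). No 2 matches overlap in these 5 promoters except that TTGCGCAA in Orm2 matches on both strands. The Saa1 and Saa2 promoters were identical at 95.6% of aligned bases and held the same 8 letters, TTGCACAA. Of the 8 members with a listed promoter, 7 had a C/EBP match, against 9.57% of all 32817 listed promoters cut to the same length. The 7 include Saa4 (2 matches) and Hpx (1 match), which were not called in WT males. A relation of the match to the rise was not tested. The exception was Apcs, which held the STAT3 motif TTCNNNGAA (7.01% of all promoters), the interleukin-6 response element CTGGGA (26.99%) and TGTTCT (16.1% of all promoters, and 2 of the 8 members). The TATA box stood in 1 of the 8 members, against 12.4% of promoters, and GGGANTTNC, searched for NF-kB, in 0, against 3.54%. These are letter matches in this window and not measured binding.

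Per length, the genes spanned a wide range of levels. By FPKM (fragments scaled to transcript length and library size), Hpx, the heme carrier, had the highest median over the 27 mice at 3359, then Hp, which binds free hemoglobin, at 2062 and Orm1, a carrier of lipophilic molecules, at 852. Saa1 (111), Apcs (108), Saa4 (79.2), Saa2 (57.6) and Orm2 (52.6) followed, then Lcn2 (34.0), a siderophore-binding protein, and Saa3 (10.9). The ranges of neighbours in this order overlapped. Saa1 ran from 39.1 to 1256 FPKM. In CPM, used for all comparisons between mice, its highest value was 39.5 times its lowest, and that of Saa2 87.1 times. The same quotient was 2.35 for Hpx and 2.58 for Orm1.

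The main inducible pair, Saa1 and Saa2, encodes the apolipoproteins of high density lipoprotein that rise most in the acute phase. It was high in resolution males. Saa1 was at 21.2, 32.5 and 27.3 CPM in WT males on WDA and at 139, 278 and 121 CPM in WT Res males. In KO males it was at 47.6, 41.0 and 23.6 CPM on WDA and at 143, 281 and 566 CPM in Res. All 6 Res males (121 to 566 CPM) were above the 21 other mice (14.3 to 81.3 CPM), and the share of all genes doing so was not counted. In WT males Saa1 rose 6.69-fold (log2 fold change 2.74 ± 0.32 SE, edgeR's adjusted p = 0.0046). In KO males the log2 fold change was 3.15 ± 0.53, with an adjusted p of 0.27.

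Saa2 moved in the same mice. Its values were 8.57, 12.9 and 10.9 CPM in WT males on WDA and 87.3, 176 and 75.6 CPM in Res, a 10.5-fold rise (log2 3.40 ± 0.33, adjusted p = 0.0033). In KO males they were 24.4, 21.9 and 10.7 CPM on WDA and 95.6, 176 and 494 CPM in Res. The groups did not overlap, while the log2 difference of 3.76 ± 0.65 had an adjusted p of 0.28. KO Res mouse 6 had the highest Saa1 and Saa2 of the series. Saa2 CPM over Saa1 CPM was 0.399 to 0.404 in the WT males on WDA and 0.623 to 0.632 in WT Res males, so the Saa2 share was higher there. Over all 15 WDA mice the quotient ran from 0.396 to 0.634.

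Saa3, which in mice is made mainly outside hepatocytes, by macrophages and fat cells among others, was the lowest member. In WT males it was at 1.40, 2.72 and 2.32 CPM on WDA and at 19.9, 26.9 and 7.15 CPM in Res. It rose 8.39-fold there (log2 3.07 ± 0.48, adjusted p = 0.011). KO Res males had 9.70, 5.48 and 9.32 CPM, against 3.46, 2.71 and 1.95 on WDA (log2 1.60 ± 0.32, adjusted p = 0.42). In WT males the adjusted p of Saa3 was above 0.05 when WDA mouse 20 or 21 was left out (up to 0.070). The summed macrophage markers ran from 322 to 1046 CPM on WDA and from 329 to 820 in Res. Of these 9 genes Lyz2 rose in WT males (log2 0.95), where 11% of all genes were called. Of the fat cell markers, Adipoq, Plin1 and Lep were below 1 CPM in every liver (at most 0.424, 0.953 and 0.212), while Cfd fell by 4.70 on the log2 scale in WT males. Their part in the Saa3 values was not tested.

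**Figure D1:**
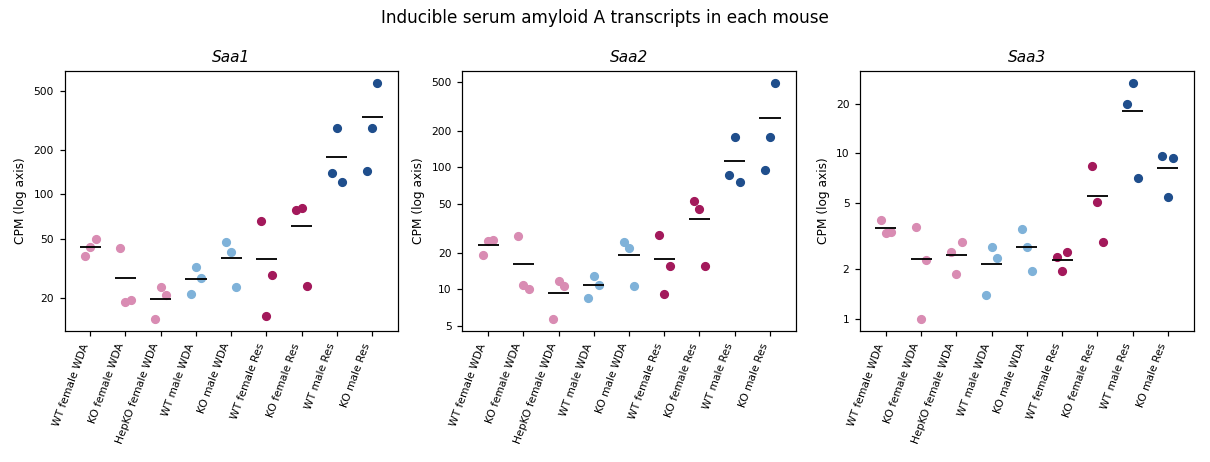
CPM of Saa1, Saa2 and Saa3 in each of the 27 mice (points), by group, on log axes, with bars at the group mean. For Saa1 and Saa2 the 6 Res males lie above all other mice, and the values of Saa3 in WT Res males reach 26.9 CPM.

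Saa4, the constitutive member of the family, overlapped between stages. It ranged from 48.5 to 197 CPM on WDA (median 146) and from 80.1 to 299 in Res (median 165), and it passed the test in none of the 4 sets of Res against WDA mice. Its log2 difference in WT males was 0.25 with an SE of 0.19.

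The orosomucoids, which bind lipophilic drugs and steroids in plasma, separated. Orm2 was at 10.3, 13.6 and 8.46 CPM in WT males on WDA and at 41.6, 56.9 and 46.8 CPM in Res. The 4.55-fold rise (log2 2.19 ± 0.19) had an adjusted p of 0.0018, the lowest of the 10 genes in WT males. KO males had 23.3, 15.8 and 17.3 CPM on WDA and 43.3, 59.4 and 53.3 in Res (log2 1.48 ± 0.21, adjusted p = 0.19). In females the Orm2 values were 17.7 to 38.6 CPM on WDA, where the 6 males had 8.46 to 23.3. WT Res females had 19.8, 14.9 and 24.7 CPM, below the 28.3, 29.4 and 34.9 of WT females on WDA (log2 -0.63 ± 0.21, adjusted p = 0.29). Orm1 had 463, 604 and 517 CPM on WDA and 577, 599 and 563 in Res in WT males, and these groups overlapped. Orm2 CPM over Orm1 CPM was 0.0164 to 0.0224 in WT males on WDA and 0.0720 to 0.0950 in Res. With Orm1, Orm2 and Orm3 summed, which Orm1 dominates, the difference in WT males was 0.24 (adjusted p = 0.21).

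Hp was the member that was higher in Res in both sexes. The 15 WDA mice had 1191 to 2308 CPM (median 1793) and the 12 Res mice 2404 to 4817 (median 2972), with no overlap. The share of all genes that separate these mice was not counted. In WT males it was at 1894, 2040.5 and 2071 CPM on WDA and at 3261, 3947 and 3403 in Res, a 1.79-fold rise (log2 0.84 ± 0.12, adjusted p = 0.0088). In KO females it was at 2308, 1269 and 1191 CPM on WDA and at 3838, 2910.5 and 2901 in Res, a 2.02-fold rise (log2 1.02 ± 0.25, adjusted p = 0.020). The call in KO females was lost in 4 of the 6 refits that left out a mouse, with adjusted p between 0.051 and 0.066. WT females differed by 0.61 ± 0.21 (adjusted p = 0.29) and KO males by 0.85 ± 0.31 (adjusted p = 0.70) on the log2 scale. Over the 24 WT and KO mice, with sex and vector in the model, Hp rose by 0.82 ± 0.11 on the log2 scale (adjusted p = 1.3e-05), and the call held without any of the mice. Hpx did not follow. It ranged from 3310.3 to 6573 CPM on WDA and from 2796 to 5888 in Res, and its pooled difference was -0.09 ± 0.13 on the log2 scale.

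Lcn2, an iron-sequestering protein of epithelia, neutrophils and stressed hepatocytes, was at 8.57, 4.36 and 3.45 CPM in WT males on WDA and at 28.1, 58.9 and 33.3 in Res. This was a 7.40-fold rise (log2 2.89 ± 0.38, adjusted p = 0.0069). The Lcn2 call was lost with a spread shared by all 9 groups (adjusted p = 0.064). In KO females it was at 25.7, 9.16 and 6.59 CPM on WDA and at 51.8, 36.1 and 21.4 in Res (log2 1.40 ± 0.46, adjusted p = 0.058). Of 10 neutrophil markers, S100a8, S100a9 and Csf3r also rose in WT males (log2 2.06, 2.32 and 0.92), where 11% of all genes were called. S100a8 (2.84) and S100a9 (2.03) rose in KO females, with 20.4% of all genes called. In the pooled comparison of Res with WDA, Ngp (2.24), S100a8 (1.51) and S100a9 (1.54) rose, near the 28.5% of all genes called. The summed list ran from 3.39 to 18.6 CPM on WDA and from 7.51 to 33.5 in Res. Ly6g, Mpo and Camp of this list were near 0, at most 0.235, 0.420 and 0.411 CPM in any mouse. The part of neutrophils in the Lcn2 values was not tested.

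Apcs, a pentraxin that is the main acute phase reactant of some mouse strains, passed the test in none of the 4 sets. It was between 38.2 and 181 CPM on WDA and between 46.5 and 115 in Res. In KO females its log2 difference was -0.72 ± 0.28 (adjusted p = 0.095), and in WT males it was the lowest of the 10 genes, at -0.35. KO males had 38.2, 84.2 and 44.7 CPM on WDA and 48.2, 89.6 and 115 in Res, which overlapped (log2 0.61 ± 0.38, adjusted p = 0.80).

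**Figure D2:**
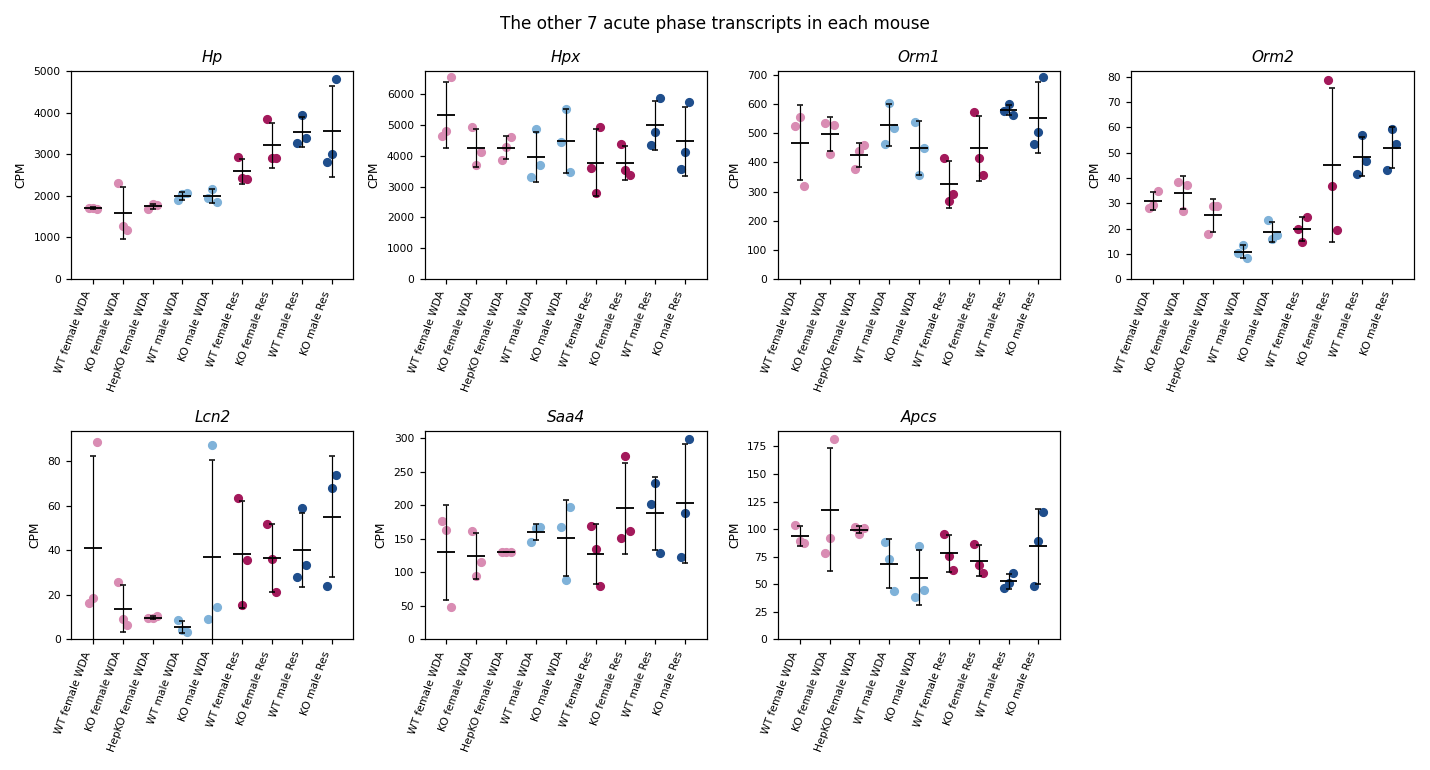
CPM of the other 7 genes in each mouse (points) by group on linear axes from 0, with the mean and SD of 3 mice (lower SD bars end at 0). Every Res group of Hp lies above every WDA group, while Hpx, Orm1, Saa4 and Apcs overlap between stages.

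Counted over the list, 6 of the 10 genes rose and 0 fell in WT males, where 11% of all 12408 genes tested were called by edgeR. The median log2 fold change of the 10 was 1.51, against 0.02 over all genes. The same 6 genes had all Res values above all WDA values, which 16.5% of all genes did. In KO females 1 of 10 was called (Hp), below the 20.4% of all genes, and 1 had Res above WDA throughout (20.1% of all genes). The median of the 10 in KO females was 0.84, against 0.01. In KO males edgeR called 0 of 10, as it called 0% of all genes. At an unadjusted p under 0.05 it was 5 of 10 (Saa1, Saa2, Saa3, Orm2 and Hp) against 6.43% of all genes, and DESeq2 called 4 of the 10 (0.62% of all genes). The same 5 genes had non-overlapping groups in KO males, as 6.77% of all genes did. In WT females 0 of 10 and 0% of all genes were called by edgeR, and 1 (Hp) and 3.21% by DESeq2. At an unadjusted p under 0.05 there were 3 (13.6% of all genes): Hp was higher, and Orm2 and Saa3 lower, in Res. For Hp all WT Res females were above all on WDA (10.1% of all genes), and for Orm2 and Saa3 they were below (10.3% of all genes).

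Pooled over sex and vector, 5 of the 10 genes rose in Res (Hp, Saa1, Saa2, Saa3 and Orm2) and 0 fell, where 28.5% of all genes were called. The pooled log2 fold changes were 1.68 ± 0.43 for Saa1 (adjusted p = 0.0049), 1.99 ± 0.51 for Saa2 (adjusted p = 0.0053) and 1.44 ± 0.36 for Saa3 (adjusted p = 0.0043). For Orm2 the value was 0.86 ± 0.28 (adjusted p = 0.022), and the call was lost without KO female Res mouse 2 (adjusted p = 0.064). These pooled values average sets whose values ran in different directions. Some markers of other cells moved in the same comparisons, where 11% of all genes were called in WT males and 28.5% in the pooled comparison. Of 3 lymphocyte markers, Cd3e rose in WT males (log2 1.79), and Cd3e (1.30), Cd79a (0.79) and Ms4a1 (0.74) rose in the pooled comparison. Their sum ran from 1.40 to 3.82 CPM on WDA and from 1.94 to 6.20 in Res. Of the endothelial markers, Lyve1 rose in WT males (0.997) and, with Pecam1, in the pooled comparison (0.58 and 0.28). The other endothelial markers were not called in WT males. There Clec4g (-0.491), Kdr (-0.364) and Stab2 (-0.297) were lower in Res, and Pecam1 (0.207) was higher. Clec4g (-0.192), Kdr (0.179) and Stab2 (0.156) were not called in the pooled comparison, so these markers did not move together. Of the cholangiocyte markers, Sox9 rose in WT males (1.95), while Epcam (0.93) and Spp1 (0.81), the others tested there, were not called. In the pooled comparison none was called. Sox9 (0.61) was higher there in Res, and Krt19 (-0.51), Krt7 (-0.76), Epcam (-0.48) and Spp1 (-0.81) were lower. The part of these cells in the members' values was not tested.

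**Figure D3:**
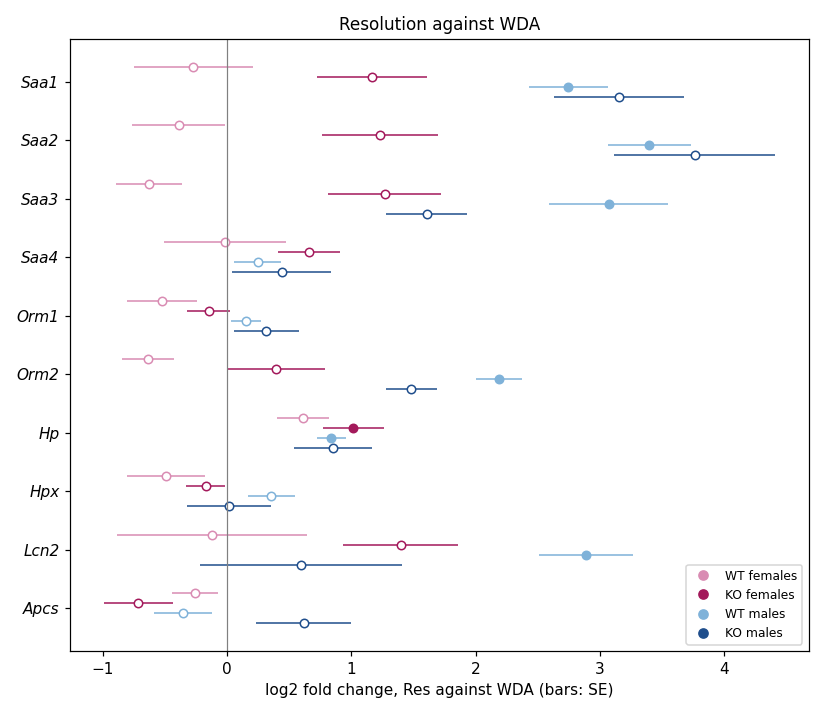
log2 fold change of Res against WDA for each gene in WT and KO females and males (points, bars are SE); filled points have an adjusted p under 0.05. Saa1, Saa2, Saa3 and Orm2 lie right of 0 in both male sets and left of 0 in WT females, and Hp lies right of 0 in all 4.

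Males and females were then compared in how far Res differed from WDA. This test was added after the values were seen. Of the 10 genes, 2 passed, against 0.126% of all genes. The Res difference was larger in males by 3.25 ± 0.61 on the log2 scale for Saa2 (adjusted p = 0.033) and by 1.92 ± 0.37 for Orm2 (adjusted p = 0.035). Both calls were near the threshold, and among 24 refits without a mouse Saa2 was called in 15 and Orm2 in 12. For Saa1 the difference was 2.59 ± 0.58 (adjusted p = 0.074), and for Saa3 it was 1.97 ± 0.60 (adjusted p = 0.30). For Hp it was 0.01 ± 0.22. Averaged over stages, males against females gave 0 calls among the 10 genes, against 9.48% of all genes, with a lowest adjusted p of 0.10. DESeq2 called 1 of them (Saa1) and 11.9% of all genes, and the edgeR log2 value of Saa1 was 1.11 ± 0.42.

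Females in resolution varied among themselves. Saa1 was at 66.0, 15.1 and 28.7 CPM in WT and at 77.9, 81.3 and 23.9 in KO Res females. KO Res mouse 4 was the lowest of its group for every member except Saa4. The Saa1 difference between Res and WDA in KO females was 1.17 ± 0.44 on the log2 scale (adjusted p = 0.090). The numbers turned on single mice: without KO female WDA mouse 1, whose Saa1 (43.3 CPM) and Hp (2308 CPM) were the highest of its group, 7 of the 10 genes were called, and 18.2% of all genes. These were Saa1, Saa2, Saa3, Saa4, Hp and Lcn2, which were higher in Res, and Apcs, which was lower.

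The Cre vectors were compared with the control vector within each sex and stage. Kdm5b itself was not called in any of these comparisons. In WDA males its log2 difference was only -0.16 ± 0.09 (adjusted p = 0.59), so little loss of the transcript was seen in that comparison. The study also stained livers of its vector-treated mice for KDM5B protein, which is not part of these data. No member passed an adjusted p of 0.05 in any of these comparisons, in which 0% of all genes did. In WDA females 0 of 10 had an unadjusted p under 0.05 (3.11% of all genes). The values ran from -1.61 for Lcn2 to 0.31 for Apcs on the log2 scale, and DESeq2 called 0. In WDA males 3 of 10 did (7.71% of all genes): Lcn2 (2.79), Orm2 (0.81) and Saa2 (0.83), each with an adjusted p of 0.59. The Lcn2 value rested on mouse 17: KO males on WDA had 9.04, 87.3 and 14.5 CPM, and without that mouse the log2 difference was 1.10.

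In Res females 2 of 10 passed the unadjusted p (19.2% of all genes), with 1.22 ± 0.38 for Saa3 (adjusted p = 0.16) and 1.14 ± 0.45 for Orm2 (adjusted p = 0.23). In Res males 2 of 10 did (1.45% of all genes): Saa3, which was 2.18-fold lower in KO (log2 -1.12, adjusted p = 1.0), and Apcs, which was 1.61-fold higher (log2 0.69, adjusted p = 1.0). The highest value there was that of Saa2, at 1.19. The KO difference of Saa3 in Res was thus of opposite sign in females and males. The difference between the sexes was 2.36 ± 0.64 on the log2 scale, with an adjusted p of 0.27 in edgeR, where 0% of all genes passed and 11.5% had an unadjusted p under 0.05. Saa3 was 1 of 2 members under that p, with Apcs (-0.84), and DESeq2 called it (adjusted p = 0.035) with 0.645% of all genes. Over both sexes, 1 of 10 was under the unadjusted p on WDA (Orm2, 0.47, 2.92% of all genes) and 1 in Res (Saa2, 1.13, 7.85% of all genes), and 0% of genes were called in either. The tests of whether the KO difference itself changed between WDA and Res called 0 of 10 and 0% of all genes in both sexes, and DESeq2 called 0 of 10 in both.

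HepKO females had the lowest mean Saa1 of the series. They had 14.3, 23.9 and 21.1 CPM, below the 38.3, 43.9 and 49.8 CPM of WT females on WDA. Saa2 was at 5.67, 11.7 and 10.7 CPM against 18.96, 24.9 and 25.2. The log2 differences were -1.16 ± 0.21 for Saa1 (adjusted p = 0.18) and -1.31 ± 0.28 for Saa2 (adjusted p = 0.23). Lcn2 was at 9.38, 9.60 and 10.3 CPM against 16.2, 18.4 and 88.7 (log2 -2.10 ± 0.68, adjusted p = 0.40). These 3 were the members with an unadjusted p under 0.05 (10.1% of all genes). They were called by DESeq2 (1.85% of all genes), and by edgeR (2.8%) without WT mouse 7, whose cholangiocyte markers summed to 464 CPM. That refit leaves only mice 5 and 6 in the WT group. Mouse 7 had the highest Saa1, Saa2 and Lcn2 of its group. Without it the differences were -1.05 for Saa1 (adjusted p = 0.022), -1.23 for Saa2 (adjusted p = 0.039) and -0.82 for Lcn2 (adjusted p = 0.013). HepKO against KO females gave 0 calls among the 10 by edgeR and by DESeq2, against 0.0162% of all genes, and 0 with an unadjusted p under 0.05 (5.74% of all genes). The values there ran from -0.79 for Saa2 to 0.13 for Hp. The WT females on WDA serve in both the KO and the HepKO comparison.

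**Figure D4:**
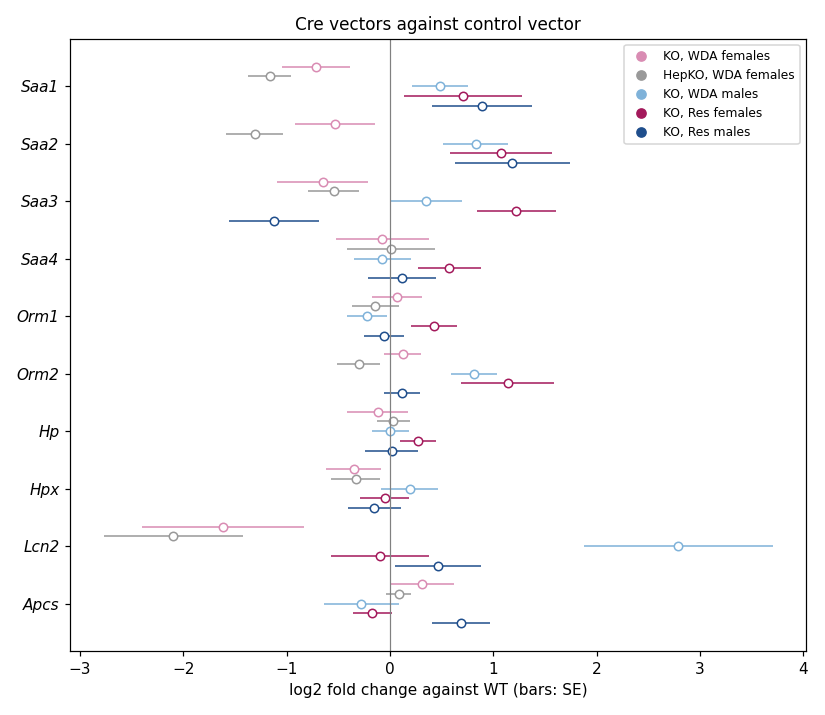
log2 fold change of KO or HepKO against WT in the same sex and stage for each gene (points, bars are SE); open points show that no adjusted p was under 0.05. Saa1 and Saa2 lie left of 0 in WDA females, and Saa3 lies on opposite sides of 0 in Res females and Res males.

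In the 5 libraries with high cholangiocyte markers the members were set against the range of the library's 2 groupmates. With only 2 groupmates, chance alone places a value outside their range more often than within it. The share of other genes and other libraries outside such a range was not counted. The placements given here are therefore only a description. Lcn2 was 88.7 CPM in WT female mouse 7, 4.82 times the higher of its groupmates, and 87.3 CPM in KO male mouse 17, 6.04 times. In the other 3 libraries Lcn2 lay within the range of the groupmates. Saa4 was below both groupmates in 4 of the 5 libraries, and Hpx above both in 4 of the 5. Orm2 was above in 3 and below in 1, and Apcs above in 2 and below in 2. Saa1 was within its groupmates' range in 3. Without these libraries, 7 of the 10 genes rose in WT males (13.5% of all genes called) and 6 in the pooled comparison of Res with WDA (37.7%), and 3 passed the test of how far Res differed between the sexes (1.64%). KO females held no such library. Leaving these libraries out was decided after the data were seen, and whether bile duct cells account for the Lcn2 values was not tested.

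**Figure D5:**
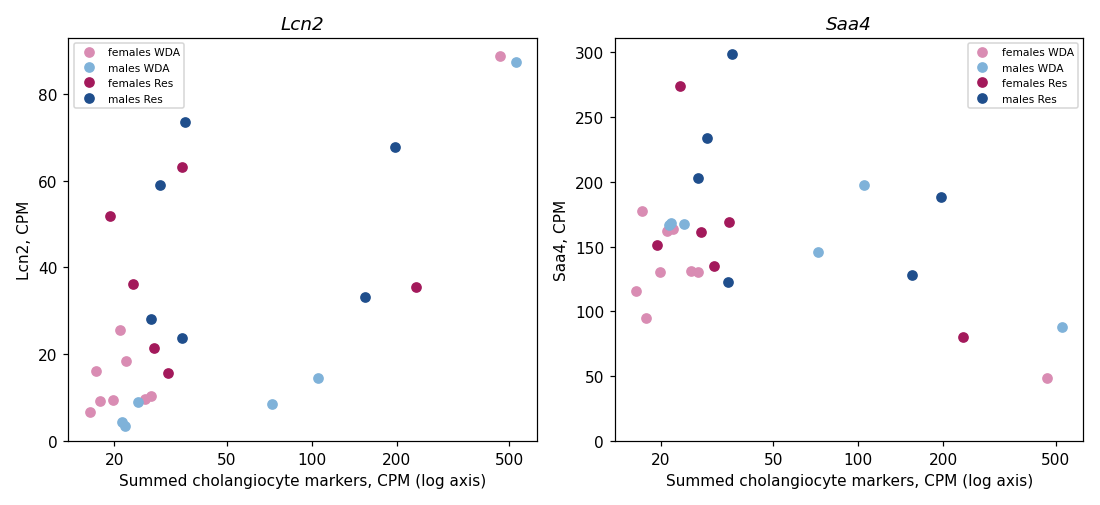
CPM of Lcn2 (left) and Saa4 (right) in each mouse against the summed CPM of 5 cholangiocyte markers (log axis), coloured by sex and stage. The 2 highest Lcn2 values, 88.7 and 87.3 CPM, are those of the 2 mice with the highest marker sums.

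How far other members followed Saa1 from mouse to mouse was measured on log2 CPM within each sex and stage, since the Res males form a cluster of their own. Exact permutation tests were used, with adjustment over the 9 other genes. Saa2 followed Saa1 in WDA females (r = 0.978, rho = 0.900, adjusted exact p of r = 0.00084, n = 9), in WDA males (r = 0.977, rho = 1, adjusted exact p = 0.013, n = 6), in Res females (r = 0.972, rho = 0.943, adjusted exact p = 0.038, n = 6) and in Res males (r = 0.992, rho = 1, adjusted exact p = 0.013, n = 6). Without the 2 mice farthest from the median Saa1, these values of r were between 0.936 and 0.998. The 2 transcripts share sequence, so some of their reads may be shared too. Saa3 followed Saa1 in WDA males (r = 0.932, rho = 0.943, adjusted exact p = 0.025, n = 6, and r = 0.896 without 2 mice). In Res males the value for Saa3 was r = -0.04 (rho = -0.14, adjusted exact p = 0.91, n = 6). In WDA females Hpx (r = 0.823, rho = 0.950) and Lcn2 (r = 0.819, rho = 0.900) also followed Saa1, each with an adjusted exact permutation p of 0.0063, and r was 0.824 and 0.863 without 2 mice. By rho the adjusted exact p was 0.075 for Saa3 in WDA males and 0.10 for Saa2 in Res females, each with n = 6. These correlations within a sex and stage mix the vector groups, and the permutations were not kept within a vector. In WDA females every WT mouse was above every HepKO mouse for Saa1, Saa2, Hpx and Lcn2. A vector difference can therefore enter these values of r. The other relations had an adjusted p above 0.05.

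By Pearson's r over all 27 mice, a description that carries the stage and sex differences with it, the genes most like Saa1 were Saa2 (0.991), Saa3 (0.830), Sytl1 (0.818), Gvin1 (0.795) and Hp (0.790). Those most like Hp were Ube2u (0.863), Itih3 (0.854), C3 (0.850), Polrmt (0.844) and Myom3 (0.840), of which Itih3 and C3 are acute phase genes. For Saa3, Spryd3 (0.754) and Clec4e (0.745) stood beside Saa2, Saa1 and Hp, and for Orm2, Septin1 (0.755), Nkg7, Cd6 and Tifa stood beside Saa2 (0.740). Lcn2 was most like Dgkz (0.857), Ssh3, Arhgef40, Sidt1 and Tcirg1. Saa4 was most like Ndrg2 (0.868), C130074G19Rik, C8g, Sult5a1 and Pgrmc1. Hpx, with Elovl1 first (0.773), then Stoml1, Tmem138, Pkdcc and Faap20, and Orm1, with Grina first (0.799), then Slc6a4, Mindy1, Ldhd and Lamp1, had no other member among their first 5, nor had Apcs, with Mcu first (0.802), then Aig1, Hapln4, Ybx3 and Crip2.

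Of 20 other positive acute phase genes, 8 rose and 0 fell in the pooled comparison of Res with WDA, where 28.5% of all genes were called in either direction. The largest values were those of Hamp, the iron hormone hepcidin (log2 0.88), C3, the central complement component (0.58), Itih3, a hyaluronan-binding protease inhibitor (0.57), and Mbl2, a mannose-binding lectin (0.49). The list's median was 0.22, against 0.81 for the 10 members and -0.01 for all genes. In WT males 2 of the 20 rose, C3 (0.47) and Lbp, which binds endotoxin (0.63), near the 11% of all genes called. In KO females, with 20.4% of all genes called, 4 rose, among them Hamp (1.47) and C3 (0.74), and 2 fell, Mbl1 (-0.86) and Crp (-0.65). In WT females and KO males 0 of 20 were called, as were 0% of all genes. The lowest p belonged to Steap4 (-0.62, adjusted p = 0.25) and Lbp (0.58, adjusted p = 0.70). In the added test of males against females 0 of 20 and 0.126% of all genes passed, with the lowest p for Itih4 (0.68, adjusted p = 0.71). Averaged over stages, 4 of the 20 were lower in males, led by Serpina3m (-0.71), where 9.48% of all genes were called.

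Negative acute phase genes, whose output falls in inflammation, did not fall as a group. Of 8, Alb (0.47) and Fetub (0.48) rose and Ahsg, the fetuin-A gene, fell by 0.58 in the pooled comparison, 3 of 8 called against 28.5% of all genes. In WT males (11% of all genes) Fetub rose (0.43) and Ahsg fell by 0.52, and in KO females (20.4% of all genes) Alb (0.74) and Fetub (0.59) rose. In WT females and KO males 0 of 8 were called, as were 0% of all genes.

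Transcripts of the cytokines that drive the response were scarce in these livers, and cytokine proteins were not measured. Il6 reached at most 0.235 CPM, Osm 0.444, Lif 1.02 and Tnf 1.51. Il1b ran from 2.08 to 9.56 CPM on WDA and from 0.953 to 5.23 in Res, and it fell by 0.79 on the log2 scale in the pooled comparison. Of the receptors, Il1r1 (0.82) and Il6ra (0.75) rose and Tnfrsf1a fell by 0.31 there, with 28.5% of all genes called. In WT males (11% of all genes) Osmr was the one receptor gene that rose (1.21). In KO females (20.4% of all genes) Il1r1 (1.42) and Il6ra (1.02) rose. Tnf, at its low level, differed by 1.51 ± 0.42 between Res and WDA in WT males (adjusted p = 0.056). In WT females and KO males 0 of 8 tested genes of this list were called, as were 0% of all genes. The lowest p was that of Il6ra (1.25, adjusted p = 0.23) and Il1r1 (0.67, adjusted p = 0.67).

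Of 13 signalling and transcription factor genes, Cebpd, a C/EBP factor of the acute phase, rose in the pooled comparison (0.92) and in KO females (1.77). There 28.5% and 20.4% of all genes were called. Cebpd was at 5.83 to 26.5 CPM in the 6 Res females and at 7.93 to 11.7 in the 6 Res males, so the range in males lay within that in females. The relation of Cebpd to Saa1 was not tested. Nfkbiz (0.66) and Nfkbia (0.45) also rose in KO females. In WT males 0 of 13 were called, against 11% of all genes, with Cebpa nearest (-0.49, adjusted p = 0.052). In WT females Cebpd was nearest (1.48, adjusted p = 0.27), and in KO males Rela (-0.25, adjusted p = 0.80). In both, 0% of all genes were called. Of 10 receptors and handlers of the proteins, Scarb1, the lipoprotein receptor that also binds serum amyloid A, fell by 0.47 in the pooled comparison and by 0.48 in KO females. In WT males 0 of 10 were called, against 11% of all genes (lowest p for Tlr2, 0.68, adjusted p = 0.080). In WT females and KO males it was 0 of 9 tested and 0% of all genes (lowest p for Scarb1 in both, adjusted p = 0.34 and 0.76).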

How the data were processed

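Liver RNA-seq of 27 mice was used. By the study's methods and the submitters' processing notes, the libraries were sequenced on a BGISEQ platform and aligned with HISAT to GRCm38.p6 and with Bowtie2 to reference genes; the counting tool and versions are not given in the sources used here. The authors deposited 4 tables, 1 for each sex of each experiment, that give for each gene an estimated count and an FPKM value per mouse. Between 7.34% and 8.09% of the estimated counts in a table were not whole, and these were rounded. FPKM as the authors deposited it was used only to compare levels between genes. There were 0 columns of values that belonged to no sample used here.

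The 10 members, the other gene lists and the comparisons were chosen with earlier results of these data known. Counts were tested with edgeR 4.0.16 (R 4.3.3, limma 3.58.1), with TMM scaling, filterByExpr at a minimum count of 10, the quasi-likelihood F test and Benjamini-Hochberg adjustment over all genes tested. Every adjusted p in the text is of this kind, at a threshold of 0.05, unless DESeq2 1.42.0 or an exact permutation test is named. The SE is the log2 fold change divided by the root of F. CPM used TMM factors over all 27 libraries, and correlations used log2 CPM with a prior count of 2. Each group held 3 mice, so single mice can move a value. The edgeR and DESeq2 p-values set a difference against the spread between these mice. For Res against WDA they cover no variation between experiments, since each stage was a single experiment. The total count per library limits the precision of the low genes.

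Each member is given by its values, and its fold change and test where the unadjusted p was under 0.05 or where it was the highest or lowest member of a comparison. Of each other list up to 4 called genes with the largest fold changes are named, or the gene with the lowest p where 0 were called, and for likeness the 5 genes with the highest Pearson r. Further named values were chosen after they were seen. Alternatives were DESeq2, RLE scaling, unscaled library totals, no filter, paralogs summed, a spread shared by the 9 groups, a prior count of 0.5 and leaving out each mouse. Also, 2 further choices, the test of the Res difference between the sexes and leaving out libraries with cholangiocyte markers over 150 CPM, were made after seeing the data. The scripts were tested on simulated data. Sequences came from RefSeq (8 of 10 members had a promoter entry, without Orm1 and Hp) and gene positions from GENCODE vM21. Python 3.11.15, numpy 2.4.6, pandas 2.3.3, scipy 1.17.1, Biopython 1.88 and matplotlib 3.10.9 were also used.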

Additional observations from a re-analysis of the deposited data

Results flagged for a closer look

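The difference between Res and WDA was larger in males than in females by 1.92 on the log2 scale for Orm2 (adjusted p = 0.035) and by 3.25 for Saa2 (adjusted p = 0.033), in an interaction test added after the values were seen. With the control vector alone, the ratio of the group means of Saa3 was -0.63 on the log2 scale in females and 3.07 in males, and that of Orm2 was -0.64 in females and 2.17 in males. For both genes every WT Res female lay below every WT female on WDA and every WT Res male above every WT male on WDA. The difference between the sexes within WT alone was not tested. No test for an outlying sample was run in groups of 3 mice, and the refits without each mouse are given with the processing alternatives.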

How the results depend on the processing

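Over the 18 comparisons the count of called members stayed within 1.5 times under every alternative in 10. Of the values of single members under an alternative, 1224 kept direction and side of the threshold, 37 newly passed it, 36 no longer did and 34 turned sign. DESeq2 called 3 members in HepKO against WT females, 1 for Res against WDA in WT females (Hp), 4 in KO females and 4 in KO males, 1 in males against females (Saa1) and 1 for the KO difference between the sexes in Res (Saa3), where edgeR called 0, 0, 1, 0, 0 and 0. With no filter 2 were called in KO females. With the shared spread 1 was called in KO against WT Res females (Orm2) and 3 for Res against WDA in KO males. Without the libraries rich in cholangiocyte markers 3 were called in HepKO against WT. The added test of the Res difference between the sexes called 0 with library totals (Saa2 adjusted p = 0.053, Orm2 0.057) and 0 with paralogs summed (0.061 and 0.66). Leaving out 1 mouse gave 0 to 3 calls in HepKO against WT (3 without WT mouse 7), 0 to 7 for Res against WDA in KO females (7 without WDA mouse 1, 2 without Res mouse 4), 0 to 1 in males against females (1 without KO female WDA mouse 1) and 0 to 3 in the added test. The cause was not tested.

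Signs turned for log2 differences that were not called, except Orm2 in the pooled comparison of Res with WDA, which was -0.012 with paralogs summed, a sum that Orm1 dominates. With paralogs summed Orm2 was also -0.18 in KO against WT WDA males, -0.042 in both sexes on WDA and 0.17 for the KO difference between stages in males. With library totals Apcs was 0.017 in KO against WT WDA males and -0.063 in HepKO against WT, Hpx -0.13 for Res against WDA in KO males and Saa4 0.069 in the added test. Saa4 there was 0.0094 with no filter, 0.013 with the shared spread and 0.026 without the marker-rich libraries. Hpx was -0.0041 with the shared spread for Res against WDA in KO males, and 0.12 without the marker-rich libraries in KO against WT in Res. Without 1 mouse the ranges were -0.14 to 0.53 for Apcs in KO against WT WDA females, -0.039 to 0.51 for Hp in HepKO against KO, and -0.20 to 0.18 for Hpx for Res against WDA in KO males. For KO against WT over both sexes they were -0.44 to 1.30 for Lcn2 and -0.31 to 0.065 for Saa3 on WDA, and -0.18 to 0.0053 for Hpx in Res. For Saa4 in the added test the range was -0.16 to 0.19. The refits with a turned sign lay between -0.039 and -0.0028 for Hp, between -0.20 and -0.13 for Hpx in KO males, between -0.44 and -0.022 for Lcn2, and between 0.0037 and 0.19 for Saa4, where the others included 0.019, 0.028, 0.035, 0.038, 0.039, 0.060, 0.079 and 0.081. Over all genes, calls by DESeq2 and edgeR were 230 and 0 in HepKO against WT, 404 and 0 for Res against WDA in WT females, 79 and 0 in KO males, and 73 and 17 in the added test, and the shared spread gave 308 against 1361 in WT males. With library totals the median log2 difference of all genes ran from -0.23 to 0.21 over the comparisons. Low counts limit Saa3 most. No paired analysis was possible because the labels give mouse numbers that pair no mice across groups.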
